A study of Mus musculus with 12 samples.

Results

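Bile acid synthesis and transport genes were followed in 12 mouse liver libraries by 10 genes: Cyp7a1, Cyp8b1, Cyp27a1, Cyp7b1, Akr1d1, Slc27a5, Baat, Abcb11, Slc10a1 and Slc10a2. They were chosen by name. Each was read from the table entry that carries its symbol, and, for the 3 genes listed under 2 entries, from the entry with the higher mean. The deposited tables held 24553 entries, of which 11671 passed a filter of 1 FPKM or more in at least 3 libraries. FPKM counts the fragments of a transcript after division by its length and by the size of the library, so levels of different genes can be set side by side. All 10 genes passed, and none fell below 1.01 FPKM in any library.

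The libraries formed 4 groups of 3. KO tumors and WT tumors were liver tumors taken at 8 months from Setd2 knockout and wild-type mice that had received 1 intraperitoneal dose of 25 mg/kg diethylnitrosamine (DEN), a liver carcinogen, at 2 weeks of age. KO livers and WT livers were normal liver of male Setd2 knockout and wild-type mice of 8 months that had no DEN. Setd2 encodes the enzyme that trimethylates lysine 36 of histone H3. The sample titles write cKO, and the labels do not name a Cre driver, the deleted exons or the cells in which Setd2 was deleted. Tumor growth and DEN exposure cannot be told apart in any comparison of a tumor with normal liver. The labels do not say that each library came from a separate animal, so p-values measure the spread between these libraries, part of which may be technical.

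Bile acids are made from cholesterol in hepatocytes. In the classic route Cyp7a1 catalyses the first and rate-limiting step, and Cyp8b1 adds the hydroxyl group that distinguishes cholic acid. In the acidic route Cyp27a1 and then Cyp7b1 hydroxylate the sterol. Akr1d1 reduces the ring, Slc27a5 activates the acid with coenzyme A, and Baat joins it to taurine or glycine. Slc10a1 (NTCP) takes bile acids up from blood at the sinusoidal side, Abcb11 (the bile salt export pump) secretes them into the canaliculus, and Slc10a2 (ASBT) is the apical carrier best known from ileal enterocytes and bile duct cells. The bile acid receptor Nr1h4 (FXR) induces Abcb11 and, through Nr0b2 (SHP), represses Cyp7a1 and Cyp8b1.

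RefSeq promoter windows of GRCm38.p6 (mm10) were available for 6 of the 10 genes. A window runs from 250 bases before the gene start to 50 after it. Those of Cyp8b1 and Abcb11 are shown because each held letters recognised by a regulator whose transcript is described with the other pathway genes. The bases before the start are printed 5′ to 3′ on the minus strand, the strand of both genes, with the motif matches in capitals.
Cyp8b1, chr9:121916306-121916555: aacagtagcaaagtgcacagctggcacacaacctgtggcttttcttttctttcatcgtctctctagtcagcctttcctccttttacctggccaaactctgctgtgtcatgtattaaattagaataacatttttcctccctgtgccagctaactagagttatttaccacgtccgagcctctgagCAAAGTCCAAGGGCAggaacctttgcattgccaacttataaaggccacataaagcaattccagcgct
Abcb11, chr2:69342617-69342866: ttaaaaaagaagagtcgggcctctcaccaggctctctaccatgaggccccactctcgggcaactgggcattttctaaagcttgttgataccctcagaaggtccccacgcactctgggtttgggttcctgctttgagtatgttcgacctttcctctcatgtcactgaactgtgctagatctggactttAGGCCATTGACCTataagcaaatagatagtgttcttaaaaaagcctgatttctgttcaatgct
In Cyp8b1, the HNF4A letters CAAAGTCCA at -67 from the RefSeq start (0.475% of 32851 promoter windows of 300 bases, either strand) ran 2 bases into the NR5A2 letters CAAGGNCA at -60 (6.71% of windows), so the capitals form a single block. In Abcb11, the FXR inverted repeat (AGGNCA, any base, TGACCT) stood at -63 and occurred in 0.0365% of windows. A match describes the letters and not binding, and the 3 motifs searched were found in none of the other windows of these genes.

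Setd2 was read first as a check of the labels. KO livers had 1.66, 1.93 and 1.32 FPKM of Setd2, against 4.84, 3.84 and 4.70 FPKM in WT livers, a log2 difference of -1.05 ± 0.14 (SE; limma adjusted p = 0.0108). KO tumors had 3.14, 2.18 and 1.90 FPKM, against 4.40, 3.61 and 4.07 FPKM in WT tumors, a difference of -0.57 ± 0.19 that did not pass (limma adjusted p = 0.188). The groups did not overlap in either tissue. The deposited values give no read counts, so depth is unknown. FPKM summed to between 423499 and 626303 in tumors and to between 641848 and 719538 in normal livers. Albumin, which hepatocytes make, was listed at 0 in 11 libraries, so an exact 0 in these tables need not mean an absent transcript. Of 10 hepatocyte markers, Trf (transferrin) was listed at 0 in WT tumor 1, against 15106 and 15059 FPKM in the other WT tumors. The other 9 were above 0 in every library. They summed to 15804 to 25993 FPKM in KO tumors and 34488 to 42687 FPKM in WT tumors. In KO livers they summed to 25422 to 31341 FPKM and in WT livers to 27755 to 32559 FPKM. Apoa1 made up most of the WT tumor sums, at 27242, 19940 and 21936 FPKM, against 9150, 11310 and 8808 FPKM in WT livers. By limma, 1 of the 10 markers passed as higher and 2 as lower in WT tumors against WT livers.

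In normal liver, loss of Setd2 went with a low level of Slc10a2 and a small decrease of Cyp27a1, while the other 8 genes did not pass the test. Over all genes tested, 18.1% passed in this comparison and 8.77% passed as lower, against 2 of the 10 bile acid genes, both lower. The members' median log2 difference was -0.08 and that of all genes 0.03. Here and below, differences are on the log2(FPKM + 1) scale, which understates the change of low genes, and a gene passed at a limma adjusted p under 0.05 over all 11671 entries.

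Slc10a2 was the gene with the widest span across the 4 groups, 9.94-fold between the highest and the lowest group mean. KO livers had 9.79, 3.76 and 1.70 FPKM of Slc10a2, against 35.7, 40.0 and 75.8 FPKM in WT livers. Every KO liver lay below every WT liver. The group means were 5.08 ± 4.204 FPKM in KO livers and 50.5 ± 22.0 FPKM in WT livers (SD, n = 3 each). The log2 difference was -3.23 ± 0.51 (SE), with a 95% confidence interval of -4.43 to -2.04 and a limma adjusted p of 0.0136. Of all genes tested, 42.6% had non-overlapping groups in this comparison. Without WT liver 3, the highest library, the difference was -2.91 and no longer passed (adjusted p = 0.0552), and it also missed the threshold when the filter on low values was dropped (adjusted p = 0.0547). In bulk tissue, fewer cells of a type and less RNA per cell cannot be told apart.

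Bile duct cells express Slc10a2, so their markers were read beside it. Of 10 cholangiocyte markers, 7 were tested and 0 passed in KO against WT livers by limma. Their summed FPKM, most of it Spp1, was 75.6 to 86.0 in KO livers and 41.6 to 133 in WT livers, and the groups overlapped. Krt19, a bile duct keratin, had 0.997, 5.54 and 2.42 FPKM in KO livers, against 0.985, 1.16 and 0.602 FPKM in WT livers. Pericentral hepatocyte markers summed to 3832 to 4934 FPKM in KO livers and 5852 to 6710 FPKM in WT livers, with 2 of 8 lower. Cyp2e1 made up most of these sums, at 4167, 4103 and 3093 FPKM in KO livers and 4800, 4546 and 5181 FPKM in WT livers. Of 8 periportal hepatocyte markers 0 passed by limma. Stellate and fibroblast markers summed to 83.6 to 139 FPKM in KO livers and 49.1 to 74.7 FPKM in WT livers. Of these markers 2 of 8 passed as higher, as did 1089 of all 11671 genes tested. The part of these cell types in the Slc10a2 result was not tested. Fabp6, the ileal bile acid binding protein, was listed at 0 in all 12 libraries.

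Among the enzymes, Cyp27a1 had 200, 205 and 220 FPKM in KO livers, against 268, 261 and 286 FPKM in WT livers. The ranges did not meet, and the mean was 0.767 times that of WT livers. The log2 difference was -0.38 ± 0.10 (SE, limma adjusted p = 0.0446). This call was lost in every fit that left out a library (adjusted p = 0.0763 to 0.148), after rescaling to a common sum (0.0534) and in a single fit of all 12 libraries (0.617). Cyp7b1, the next enzyme of the acidic route, had 328, 340 and 267 FPKM in KO livers and 255, 274 and 176 FPKM in WT livers. Its highest WT value lay above the lowest KO value, and the difference of 0.42, with an interval of -0.03 to 0.87, did not pass (limma adjusted p = 0.152).

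For the remaining 7 genes the groups overlapped, and the limma adjusted p ran from 0.647 to 0.947. Cyp7a1 averaged 9.55 ± 1.94 FPKM in KO livers and 10.998 ± 3.48 FPKM in WT livers (SD, n = 3 each), with an interval of the log2 difference from -0.72 to 0.40. Cyp8b1 had 64.1, 144 and 195 FPKM in KO livers, against 133, 160 and 136 FPKM in WT livers. KO liver 1 lay far below the other KO livers, and the interval ran from -1.10 to 0.64. The interval was narrowest for Slc27a5 (-0.33 to 0.22). Slc10a1, the hepatocyte uptake carrier of the same family as Slc10a2, averaged 352 ± 124 FPKM in KO livers and 363 ± 22.0 FPKM in WT livers, with an interval of -0.65 to 0.45. These intervals bound the size of a difference and do not show that the levels were equal.

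**Figure D1:**
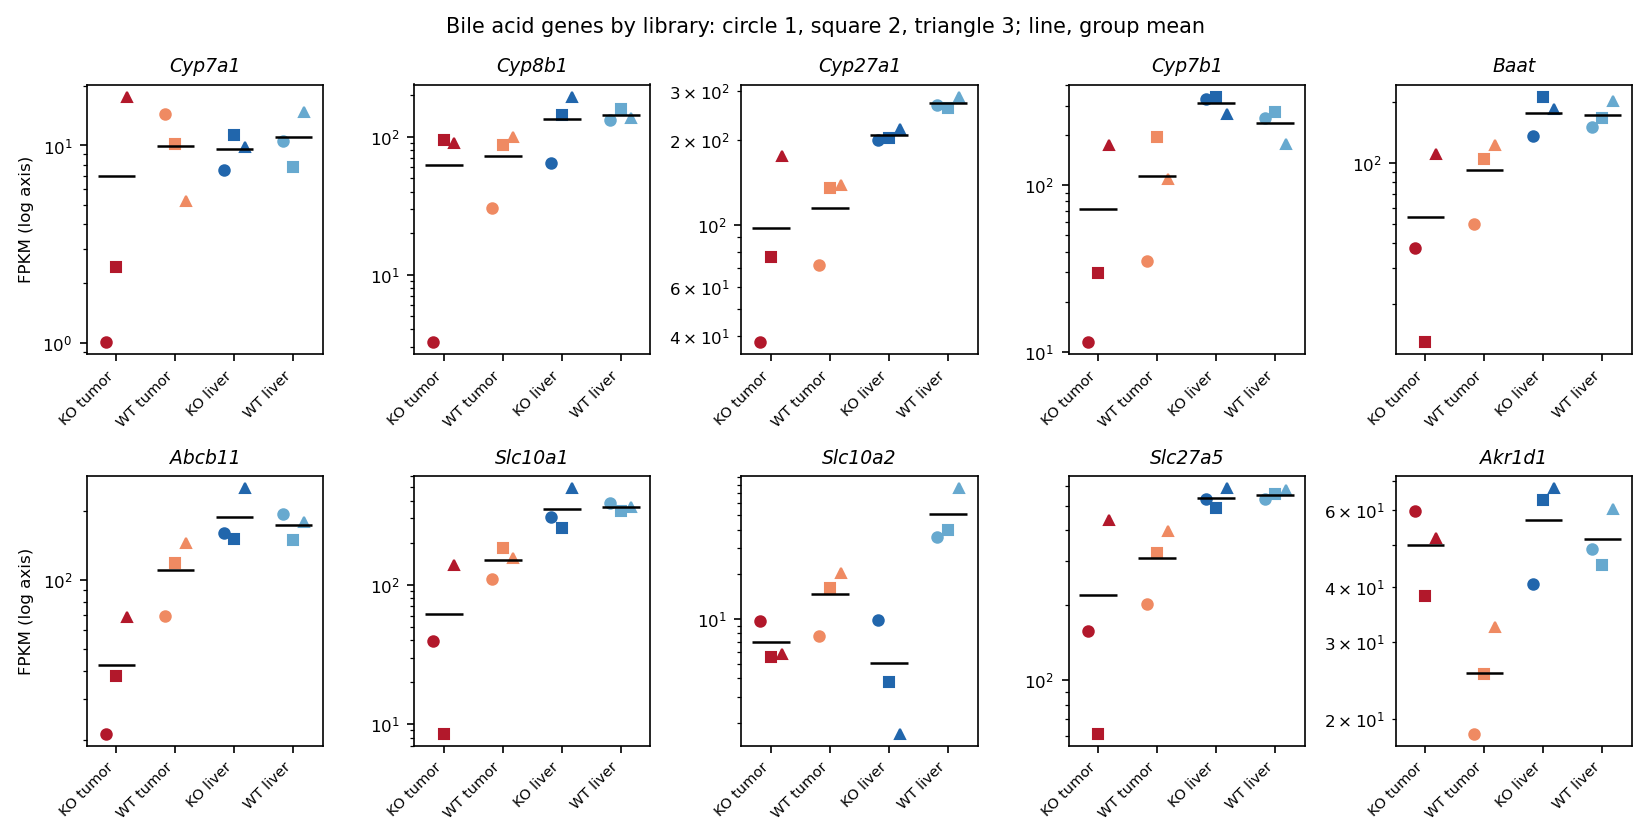
FPKM of each of the 10 genes on a log axis, with 1 panel per gene, 1 symbol per library and a line at the group mean, for KO tumors, WT tumors, KO livers and WT livers. Slc10a2 in KO livers (1.70 to 9.79 FPKM) lies below WT livers (35.7 to 75.8 FPKM), and KO tumors are the most spread group for most genes.

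In WT mice, the acidic-route enzyme Cyp27a1, the ring reductase Akr1d1, the ligase Slc27a5 and both SLC10 carriers fell in tumors relative to normal liver. These 5 of the 10 genes passed, all lower, where 17% of all genes tested passed and 8.96% passed as lower. The difference was negative for all 10 genes, although that of Cyp7a1 was 0.09 after rescaling to a common sum. The groups were apart for 8 genes, all lower, where 42.3% of all genes tested were apart in either direction and 23.8% were apart and lower. The median over the 10 genes was -1.08, against -0.04 over all genes.

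Of the enzymes, Cyp27a1 had 71.8, 135 and 138 FPKM in WT tumors, against 268, 261 and 286 FPKM in WT livers. Each tumor lay below each liver, with a log2 difference of -1.29 ± 0.25 (SE, limma adjusted p = 0.0190). Akr1d1, the ring reductase, had 18.6, 25.3 and 32.5 FPKM in WT tumors, against 49.0, 45.04 and 60.4 FPKM in WT livers. Its level was 0.495 times that of WT livers, with a difference of -1.01 ± 0.21 (limma adjusted p = 0.0232). Slc27a5, the bile acid CoA ligase, had 202, 324 and 397 FPKM in WT tumors, against 532, 555 and 576 FPKM in WT livers, a difference of -0.90 ± 0.25 (limma adjusted p = 0.0480).

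Both SLC10 carriers were lower. Slc10a1 had 109, 185 and 156 FPKM in WT tumors, against 385, 340 and 363 FPKM in WT livers. The difference was -1.30 ± 0.20 (SE, limma adjusted p = 0.0101), the smallest adjusted p of the 10 genes in this comparison. Slc10a2 had 7.74, 16.2 and 20.5 FPKM in WT tumors, against 35.7, 40.0 and 75.8 FPKM in WT livers, a difference of -1.72 ± 0.40 (limma adjusted p = 0.0291). WT tumor 1 was the lowest WT tumor for both carriers. Cyp8b1, Baat and Abcb11 were also apart but did not pass, with differences of -1.14, -0.99 and -0.70 and limma adjusted p of 0.101, 0.0802 and 0.112. Cyp7b1 overlapped between the groups (difference -1.34, adjusted p = 0.143). Cyp7a1 had 14.5, 10.2 and 5.25 FPKM in WT tumors, within reach of the 10.5, 7.79 and 14.7 FPKM of WT livers, and its interval ran from -1.02 to 0.65.

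The number of genes that passed depended on single libraries. It was 2 without WT tumor 2, 1 without WT liver 1 or WT liver 2, and 0 without WT liver 3, each fit having 5 libraries. Without WT tumor 1 it was 7. The share of all genes that passed as lower moved too, between 1.82% without WT liver 3 and 9.46% without WT tumor 1. A single fit of all 12 libraries ended the calls of Slc10a1, Slc27a5, Cyp27a1 and Slc10a2 (limma adjusted p = 0.254, 0.293, 0.0822 and 0.0505), and dropping the filter on low values ended those of Cyp27a1, Slc10a2, Slc27a5 and Akr1d1 (0.0620 to 0.113). Without WT liver 3 the calls of Slc10a1, Cyp27a1, Slc10a2, Akr1d1 and Slc27a5 were all lost, that of Slc10a1 by a narrow margin (limma adjusted p = 0.0518), and Slc10a1 was the only 1 of the 5 that no other library decided. Pericentral hepatocyte markers moved with this comparison: 6 of 8 passed as lower. Their summed FPKM, most of it Cyp2e1, was 1572 to 2778 in WT tumors and 5852 to 6710 in WT livers. Of 8 periportal hepatocyte markers, 3 passed as lower and 1 as higher. These summed to 2873 to 3949 FPKM in WT tumors and 4617 to 5892 FPKM in WT livers. Cholangiocyte markers summed to 80.2 to 654 FPKM in WT tumors and 41.6 to 133 FPKM in WT livers, most of it Spp1. Of these markers 3 of 7 passed as higher, as did 935 of all 11671 genes tested. The part of any of these cell types in the bile acid genes was not tested.

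In Setd2 KO mice, the canalicular exporter Abcb11 fell in tumors relative to normal liver. It was the only 1 of the 10 genes to pass, where 14.3% of all genes tested passed and 5.17% passed as lower. KO tumors had 21.3, 38.0 and 68.3 FPKM of Abcb11, against 160, 151 and 250 FPKM in KO livers. Every tumor lay below every liver, and the log2 difference was -2.22 ± 0.42 (SE, limma adjusted p = 0.0215). That call was lost without KO tumor 1 (adjusted p = 0.0515), without any 1 of the KO livers (0.0648 to 0.0851) and without the filter on low values (0.0628). The groups were apart for 6 of the 10 genes, all lower, where 41.1% of all genes tested were apart in either direction and 19.8% were apart and lower.

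The other 5 genes with separate groups had large but uneven differences. Slc10a1 had 39.3, 8.56 and 138 FPKM in KO tumors, against 306, 257 and 493 FPKM in KO livers, a difference of -3.17 ± 0.87 that just missed the threshold (limma adjusted p = 0.0531). Cyp7b1 had 11.5, 29.6 and 175 FPKM in KO tumors, against 328, 340 and 267 FPKM in KO livers (difference -2.94, limma adjusted p = 0.0606). KO tumor 3 was the highest KO tumor for both genes. Baat, Slc27a5 and Cyp27a1 differed by -2.15, -1.71 and -1.36, with limma adjusted p of 0.0749, 0.111 and 0.106. Cyp8b1 had 3.24, 94.6 and 89.5 FPKM in KO tumors, against 64.1, 144 and 195 FPKM in KO livers, so that a single tumor carried most of the difference of -1.89 (interval -4.64 to 0.87).

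Slc10a2 and Akr1d1 did not share this decrease. Slc10a2 had 9.69, 5.57 and 5.79 FPKM in KO tumors, inside the 1.70 to 9.79 FPKM of KO livers, with a difference of 0.59 (interval -0.54 to 1.73). Akr1d1 had 59.7, 38.2 and 51.9 FPKM in KO tumors, against 40.7, 63.2 and 67.3 FPKM in KO livers. Its difference was -0.18 as deposited and 0.25 after rescaling to a common sum, and neither passed. The median over the 10 genes was -1.80, against -0.02 over all genes. Of 7 cholangiocyte markers 3 were higher in KO tumors, with sums of 280 to 3538 FPKM, against 75.6 to 86.0 FPKM in KO livers, and Spp1 was the main part of these sums. Over all 11671 genes tested, 1061 passed as higher and 603 as lower in this comparison. Stellate and fibroblast markers had 3 of 8 higher, with sums of 141 to 212 FPKM in KO tumors and 83.6 to 139 FPKM in KO livers. Macrophage markers had 2 of 8 higher, pericentral hepatocyte markers 2 of 8 lower and periportal hepatocyte markers 1 of 8 higher. Their part in these differences was not tested.

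**Figure D2:**
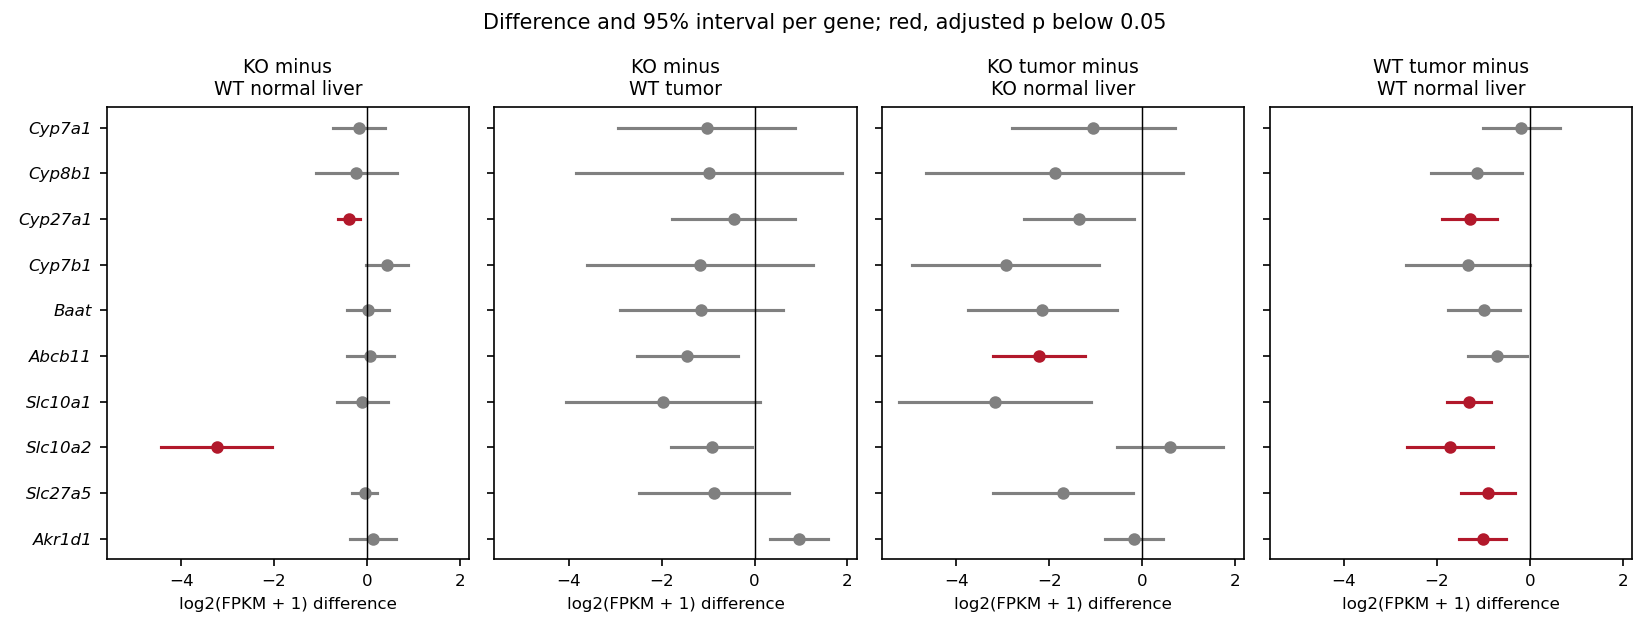
Difference of each gene on the log2(FPKM + 1) scale in the 4 pairwise comparisons, with its 95% confidence interval; red points passed at an adjusted p under 0.05. In WT mice 5 genes passed as lower in tumors, while in KO mice the intervals were wider and Abcb11 alone passed.

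Between KO and WT tumors none of the 10 genes passed. By limma, 9 of 11671 genes passed (0.0771%). An unadjusted p under 0.05 was reached by 3 of the bile acid genes and by 17.6% of all genes tested. The difference was negative for 9 of the 10 genes, with a median of -1.0 against 0.02 over all genes. The groups were apart for 2 genes, where 23.9% of all genes tested were apart, 10.1% with KO tumors lower and 13.8% with KO tumors higher.

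Those 2 genes lay on opposite sides. Abcb11 had 21.3, 38.0 and 68.3 FPKM in KO tumors, against 69.4, 118 and 144 FPKM in WT tumors. The highest KO tumor was just under the lowest WT tumor, and the difference was -1.45 ± 0.46 (SE, limma adjusted p = 0.1804). Akr1d1 had 59.7, 38.2 and 51.9 FPKM in KO tumors, against 18.6, 25.3 and 32.5 FPKM in WT tumors. It was the only 1 of the 10 genes with a higher mean in KO tumors, 1.96 times that of WT tumors, and the difference was 0.96 ± 0.27 (limma adjusted p = 0.146). In a single fit of all 12 libraries both passed, with adjusted p of 0.0429 for Abcb11 and 0.0418 for Akr1d1, in a fit where 8.71% of all genes passed.

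The carriers Slc10a1 and Slc10a2 had lower means in KO tumors. Slc10a2 had 9.69, 5.57 and 5.79 FPKM in KO tumors, against 7.74, 16.2 and 20.5 FPKM in WT tumors; KO tumor 1 exceeded WT tumor 1, and the difference was -0.92 (limma adjusted p = 0.262). Slc10a1 differed by -1.97, with an interval from -4.05 to 0.12 (adjusted p = 0.309). For the enzymes Cyp7a1, Cyp8b1, Cyp27a1, Cyp7b1, Slc27a5 and Baat the intervals all included 0, the widest being that of Cyp8b1, from -3.84 to 1.89. The hepatocyte marker Apoa1 had 14531, 5458 and 14106 FPKM in KO tumors and 27242, 19940 and 21936 FPKM in WT tumors. The 9 hepatocyte markers other than Trf, Apoa1 among them, summed to 15804 to 25993 FPKM in KO tumors. In WT tumors they summed to 34488 to 42687 FPKM, without overlap. Stellate and fibroblast markers were also apart, at 141 to 212 FPKM in KO tumors and 72.8 to 82.0 FPKM in WT tumors, as were neutrophil markers, at 22.2 to 57.1 FPKM in KO tumors and 8.90 to 10.002 FPKM in WT tumors. Cholangiocyte markers overlapped, at 280 to 3538 FPKM in KO tumors and 80.2 to 654 FPKM in WT tumors. In each of these lists 0 markers passed by limma. Their part in the lower means was not tested.

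KO tumor 3 stood apart from the other KO tumors. Set against the mean of the WT livers on the log2 scale, the 10 genes had a median of -2.67 in KO tumor 1, -2.52 in KO tumor 2 and -0.62 in KO tumor 3. WT tumors 1, 2 and 3 had medians of -1.74, -0.74 and -0.77. KO tumor 3 was thus nearer to WT liver than any WT tumor by this median, while KO tumors 1 and 2 were the farthest from it of all libraries. Within the KO tumors Cyp7a1 was 1.01, 2.42 and 17.7 FPKM, the last being the highest value of that gene in any library. For 3 genes KO tumor 3 did not stand apart from both other KO tumors: Slc10a2 was at -2.84 in KO tumor 3 and at -2.19 and -2.89 in KO tumors 1 and 2, Cyp8b1 was at -0.67 in KO tumor 3 and -0.59 in KO tumor 2, and Akr1d1 was at 0.02 in KO tumor 3 and 0.22 in KO tumor 1.

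The order of the tumors was not the same for each gene. Cyp8b1 was lowest in KO tumor 1 (3.24 FPKM) and at 94.6 and 89.5 FPKM in the other KO tumors, whereas Slc10a1 and Slc27a5 were lowest in KO tumor 2. Baat was lowest in KO tumor 2 by the entry used, but in KO tumor 1 with its entries summed (41.2 FPKM, against 88.0 FPKM in KO tumor 2). WT tumor 1 was the lowest WT tumor for 9 of the 10 genes, with Cyp7a1 as the exception. Pericentral markers, which include Cyp2e1 and Oat, summed to 222 to 3414 FPKM in KO tumors and 3832 to 4934 FPKM in KO livers. The highest tumor value was that of KO tumor 3, of which Cyp2e1 was 2796 FPKM. Periportal markers summed to 2279 to 5287 FPKM in KO tumors, also highest in KO tumor 3, and 4218 to 5358 FPKM in KO livers. Without KO tumor 3, 7 of the 10 genes passed as lower in KO tumors than in KO livers, in a fit where 12% of all genes tested passed as lower, against 5.17% with it.

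**Figure D3:**
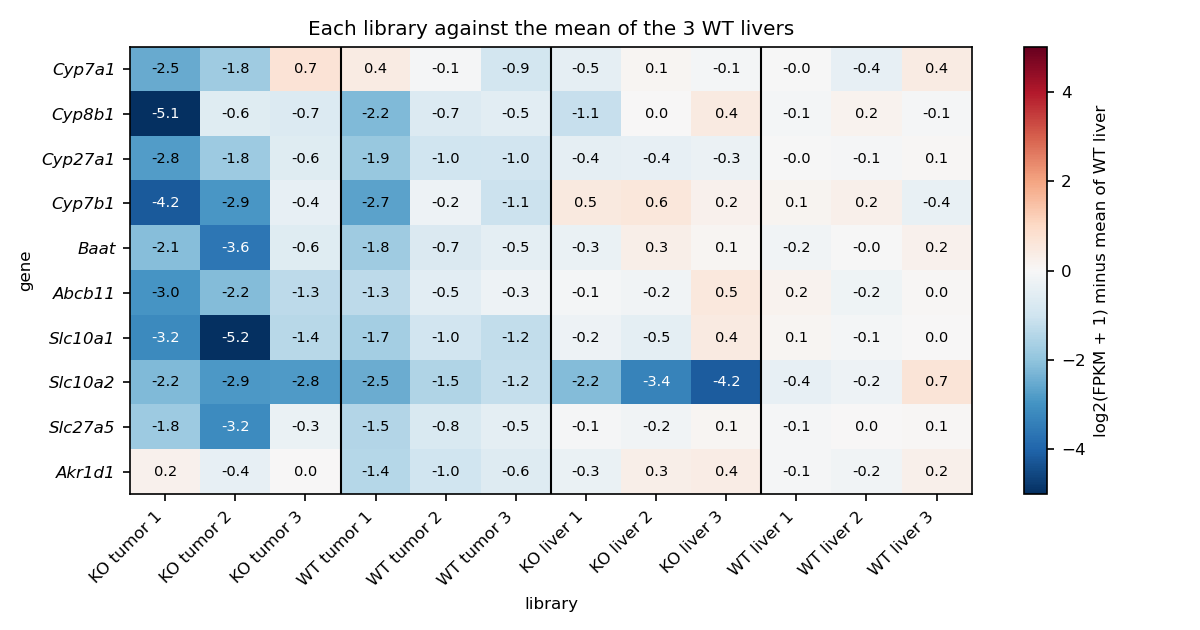
Each of the 10 genes (rows) in each of the 12 libraries (columns), as log2(FPKM + 1) minus the mean of the 3 WT livers; blue is lower and red higher. KO tumors 1 and 2 have medians of -2.67 and -2.52, KO tumor 3 has -0.62, and Slc10a2 is the lowest row in every KO liver.

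Whether the knockout difference itself differed between tumor and normal liver was tested as the interaction of genotype and tissue. None of the 10 genes passed, where 2.08% of all genes tested did. An unadjusted limma p under 0.05 was reached by 3 of the 10 and by 22.3% of all genes tested. Slc10a2 had the smallest adjusted p: the KO minus WT difference was -0.92 in tumors and -3.23 in normal liver, and their difference was 2.31 ± 0.69 (SE, limma adjusted p = 0.0919). Abcb11 differed by -1.45 in tumors and 0.08 in normal liver (interaction -1.52 ± 0.55, adjusted p = 0.139), and Akr1d1 by 0.96 and 0.12 (interaction 0.83 ± 0.36, adjusted p = 0.201). Without KO liver 1 the Slc10a2 interaction passed (2.85, adjusted p = 0.0433), in a fit where 2.33% of all genes did. Without KO tumor 3, where 11.7% of all genes passed, the interactions of Abcb11 (-1.93, adjusted p = 0.0279), Slc10a1 (-2.81, adjusted p = 0.0281) and Cyp7a1 passed. The 4 pairwise comparisons share groups, so their values for a gene are not independent of one another.

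Ranked by mean FPKM, which is per transcript length, Slc27a5 was the highest of the 10 genes in all 4 groups, at 219 ± 196 FPKM in KO tumors, 308 ± 98.5 FPKM in WT tumors, 536 ± 49.8 FPKM in KO livers and 555 ± 22.1 FPKM in WT livers (SD, n = 3 each). Cyp7a1 and Slc10a2 were the lowest in each group. Slc10a2 came last in KO livers, at 5.08 FPKM after Cyp7a1 at 9.55 FPKM. In WT livers it stood beside Akr1d1, at 50.5 and 51.5 FPKM. WT livers held the highest mean for 6 genes and KO livers for 4 (Cyp7b1, Baat, Abcb11 and Akr1d1), but the KO and WT livers were apart for Cyp27a1 and Slc10a2 alone. KO tumors held the lowest mean for 8 genes, the exceptions being Slc10a2, lowest in KO livers, and Akr1d1, lowest in WT tumors.

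Ratios between paired functions varied less than the levels in some cases. Slc27a5 to Baat, the ligase and the transferase that act in sequence, lay between 2.30 and 4.72 in all 12 libraries with the Baat entry used; with both Baat entries summed it was 0.696 in KO tumor 2 and 2.07 to 3.84 in the other libraries. Abcb11 to Slc10a1, canalicular export to sinusoidal uptake, was 0.508 to 0.588 in KO livers and 0.436 to 0.504 in WT livers, and reached 4.43 in KO tumor 2. Cyp8b1 to Cyp7a1 ran from 2.09 in WT tumor 1 to 39.1 in KO tumor 2. Slc10a2 to Slc10a1 was 0.0320, 0.0146 and 0.00345 in KO livers, against 0.0929, 0.117 and 0.209 in WT livers, without overlap.

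Baat needs a caution. Its 2 entries stood at different places of the table, 1 among genes of the minus strand, where Baat lies (44 of 46 annotated neighbours), and 1 among genes of the plus strand (44 of 46). In 11 libraries the first entry was the higher by far. In KO tumor 2 it had 13.0 FPKM and the other entry 75.0 FPKM. The libraries do not keep the strand, and how fragments were divided between the entries is not given in the sources used here. With the entries summed, an alternative chosen after seeing these values, KO tumors had 41.2, 88.0 and 127 FPKM, against 52.6, 116 and 131 FPKM in WT tumors. The difference between KO and WT tumors was then -0.26 in place of -1.14, and that between KO tumors and KO livers -1.34 in place of -2.15, and neither passed in either form. Cyp7a1 and Cyp8b1 also had 2 entries, the second below the first in every library.

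**Figure D4:**
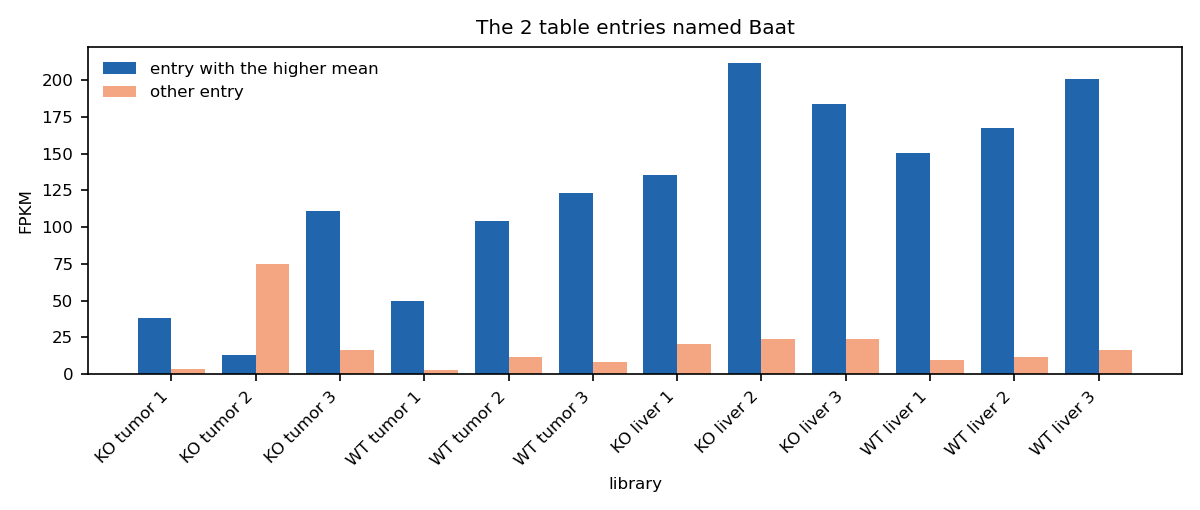
FPKM of the 2 entries named Baat in each library, as bars from 0; blue is the entry used and orange the other. The order is turned round in KO tumor 2 alone, with 13.0 FPKM in the entry used and 75.0 FPKM in the other.

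A further 55 genes of bile acid handling were listed by role, and 48 were tested. In KO against WT livers 2 were higher and 8 lower (20.8%, near the 18.1% of all genes that passed), and 6 of these 10 were among the 15 sensors and regulators tested. Prox1, a corepressor of nuclear receptors in liver, had 9.98, 9.86 and 9.06 FPKM in KO livers, against 24.0, 22.8 and 29.2 FPKM in WT livers (difference -1.30 ± 0.13 SE, limma adjusted p = 0.00559). The fatty acid receptor Ppara was lower too (difference -1.46, limma adjusted p = 0.00800). Both calls stayed when any 1 library was left out. The hepatocyte factor Hnf4a differed by -0.89, Nr5a2, which drives Cyp8b1 in mouse liver, by -0.54, and Rxra, the partner of the bile acid receptor, by -0.69 (limma adjusted p = 0.0216, 0.0236 and 0.0244). Mafg is a repressor of bile acid synthesis genes in mouse. Its entry also carries the names Mir6936 and Sirt7, so the value is not of Mafg alone. That entry was higher by 0.67 (limma adjusted p = 0.0287). These 4 calls were each lost without KO liver 2, KO liver 3, WT liver 2 or WT liver 3, and those of Nr5a2 and Rxra also without WT liver 1 (adjusted p = 0.0529 to 0.102).

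Of the other roles, Por, the electron donor of microsomal P450 enzymes, Fdx1, that of the mitochondrial ones, and the uptake carrier Slco1a4 were lower in KO livers, and the oxysterol hydroxylase Cyp39a1 was higher (-1.53, -0.75, -1.15 and 1.12). The Slco1a4 call was lost without WT liver 3 (limma adjusted p = 0.0585). Those of Por, Fdx1 and Cyp39a1 were lost in 5, 5 and 4 of the 6 fits that left out a library, among them those without KO liver 3, WT liver 2 or WT liver 3 (adjusted p = 0.0578 to 0.119). The canalicular (7 tested), basolateral (3 tested) and remaining SLC10 genes (3 tested) had 0 that passed by limma.

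**Figure D5:**
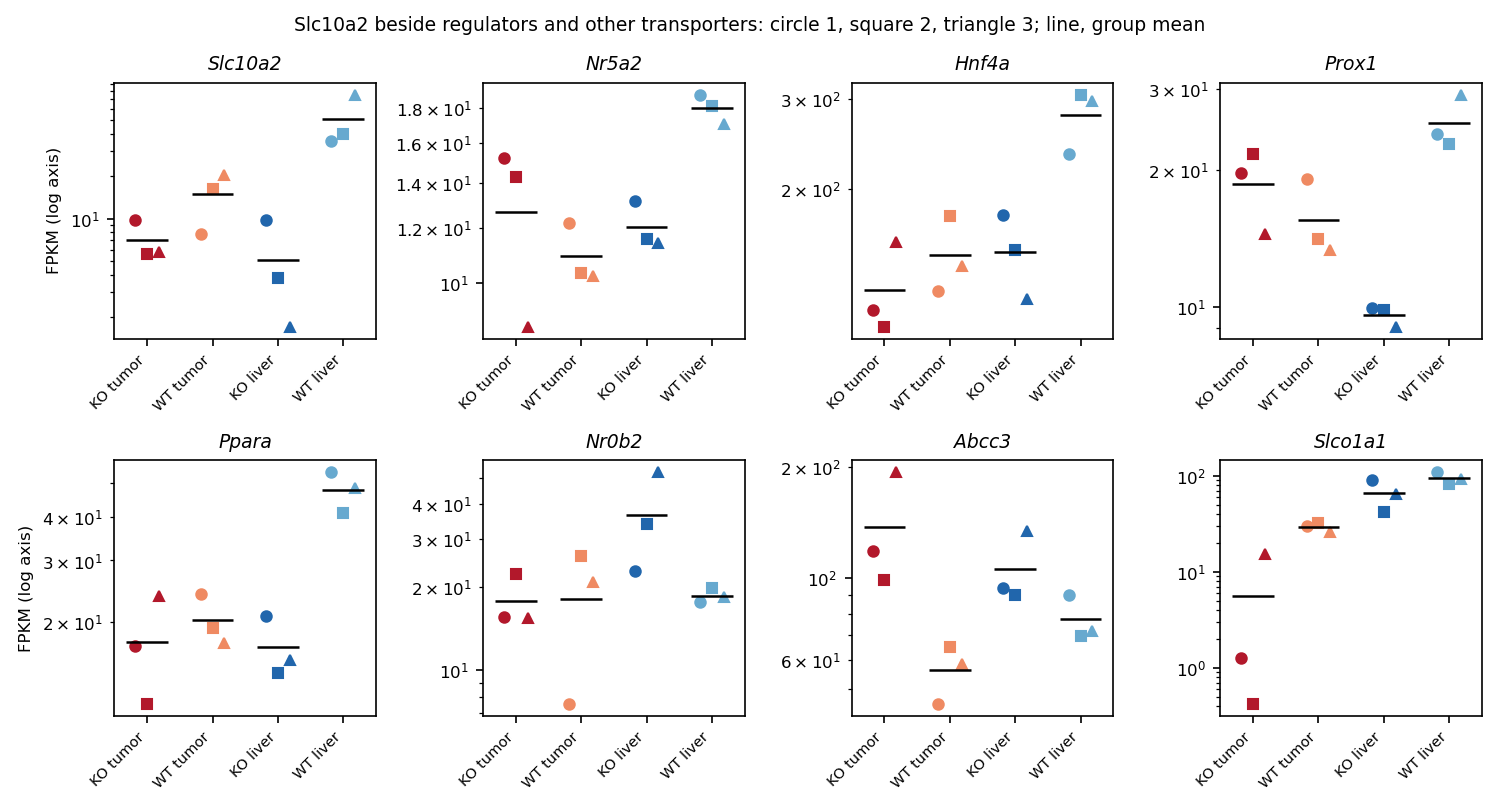
FPKM on a log axis of Slc10a2 beside 5 regulators and 2 other transporters in the 4 groups, 1 symbol per library and a line at the mean. Hnf4a, Nr5a2, Prox1 and Ppara are highest in WT livers and, like Slc10a2, lower in all 3 KO livers. The remaining regulator, Nr0b2, goes the other way. It has 23.0, 33.9 and 52.5 FPKM in KO livers, against 17.6, 19.9 and 18.5 FPKM in WT livers. Its difference of 0.85 did not pass (limma adjusted p = 0.0651).

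In WT tumors against WT livers, 17 of the 48 genes were lower and 1 higher, so that 35.4% passed as lower, against 8.96% of all genes tested. The 48 genes were listed with earlier results of these data known, so this share is not independent support. Of 4 sinusoidal uptake carriers tested, Slco1a1, Slco1b2 and Slco2b1 were lower (differences -1.66, -1.45 and -1.02, limma adjusted p = 0.00184, 0.00597 and 0.0442), and Slco1a4 differed by -1.01 and did not pass (limma adjusted p = 0.145). Of 15 regulators 7 were lower, among them the xenobiotic receptor Nr1i3 (-1.46), Ppara (-1.21) and the bile acid receptor Nr1h4 (-0.68). Slco2b1 was lost without WT tumor 2 or any 1 of the WT livers (limma adjusted p = 0.0740 to 0.147), and Nr1h4 without WT tumor 3, WT liver 2 or WT liver 3 (0.0544 to 0.0753). Sult2a8, a bile acid sulfotransferase of mouse liver, differed by -1.60. Cyp39a1 alone was higher, with 31.6, 17.4 and 19.8 FPKM in WT tumors, against 3.03, 2.08 and 2.37 FPKM in WT livers (2.74 ± 0.23, limma adjusted p = 0.00149).

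In KO tumors against KO livers, 5 were lower and 2 higher, a share of 14.6% that was near the 14.3% of all genes tested. Slco1a1 had 1.27, 0.417 and 15.3 FPKM in KO tumors, against 90.3, 42.0 and 65.7 FPKM in KO livers (-4.10 ± 0.85, limma adjusted p = 0.0257), and Slco1b2 was lower (-3.07). A joined entry of Gm6614 and Slco1a1, among genes of the other strand, had 0.997, 1.90 and 2.098 FPKM in KO tumors, against 0.801, 5.28 and 1.85 FPKM in KO livers, and exceeded the Slco1a1 entry in KO tumor 2 alone. The entry of Hsd3b7, the second enzyme of the classic route, also carries the name Setd1a, and was lower (-2.26). The basolateral exporter Abcc4 was higher, with 9.60, 8.46 and 4.90 FPKM in KO tumors, against 1.25, 1.02 and 1.27 FPKM in KO livers (1.95 ± 0.24, limma adjusted p = 0.00807), and Prox1 was higher by 0.86. The Abcc4 call stayed when any 1 library was left out. Without any 1 of the KO livers, Slco1a1, Slco1b2 and Prox1 no longer passed, and they also missed without KO tumor 1, as did Slco1a1 and Prox1 without KO tumor 2 (limma adjusted p = 0.0512 to 0.109); Hsd3b7 missed without KO liver 2 or KO liver 3 (0.0606 and 0.0624). Between KO and WT tumors 0 of the 48 passed by limma. The smallest adjusted p there belonged to Slco1a1, at 1.27, 0.417 and 15.3 FPKM in KO tumors against 30.3, 32.3 and 25.8 FPKM in WT tumors (adjusted p = 0.144), and the basolateral exporter Abcc3, at 118, 98.8 and 194 FPKM in KO tumors against 45.5, 64.9 and 58.6 FPKM in WT tumors (adjusted p = 0.118). The entry of Abcc2, a canalicular exporter of conjugated anions, also carries the name Gm10768, and lay lower in every KO tumor (-1.15, adjusted p = 0.155).

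Patterns over the 12 libraries were compared by the root mean square difference of centred log2 values. The search took tested genes with a mean FPKM of 5 or more. It left out the 10 bile acid genes, unnamed gene models, small RNAs and joined or repeated entries. Closest to Slc10a2 were Mtss1 (0.62), Creld2 (0.63) and Steap4 (0.65), where Slc10a2 itself had an SD of 1.41. Mtss1 averaged 10.5 FPKM in KO tumors, 15.0 FPKM in WT tumors, 7.59 FPKM in KO livers and 31.7 FPKM in WT livers. Closest to Cyp8b1 were Paqr9 (0.36), Nat8 (0.46) and Fam25c (0.61), where Cyp8b1 had an SD of 1.499. Closest to Cyp7a1 were Agpat6, Oit3 and Dnase1l3 (0.51 each), where Cyp7a1 had an SD of 0.94. The libraries of a group share tissue and genotype, so this likeness is a description over 12 libraries.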

How the data were processed

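Poly(A) RNA of 12 libraries was sequenced, and the kit named in the labels' protocols does not mark the strand. FPKM values were deposited by the authors, a table for each library. The submitters' processing notes name TopHat2 2.1.1, Cufflinks 2.2.1 and mm10. Neither their settings, the gene annotation nor the read depth is given in the labels. Groups came from the sample labels. Values were analysed as log2(FPKM + 1) with limma 3.58.1 (R 4.3.3), empirical Bayes with trend, two-sided, each pair of groups on its own 6 libraries and the interaction on all 12. Entries at 1 FPKM or more in at least 3 libraries (11671 of 24553) were tested, with Benjamini-Hochberg adjustment over all of them. The fit was run on simulated data to check that the mean size of planted differences was recovered. That check set no bound on false calls. Gene positions are from GENCODE vM21 and promoters from RefSeq (GRCm38.p6).

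The genes named are the 10 bile acid genes, Setd2, of each listed role up to 4 genes per comparison with the smallest adjusted p, and the 3 genes nearest in pattern to Slc10a2, Cyp7a1 and Cyp8b1. Rxra, Mafg and Nr0b2 in KO against WT livers and Nr1h4 fall outside that rule. They, the markers Krt19, Spp1, Trf, Apoa1 and Cyp2e1 and the second entries were chosen after their values were seen. Some results are not reported here. The genes and lists were chosen with earlier results of these data known. Alternatives were other pseudocounts (0.1, 5), filters, scalings, a common fit, a replicate block and leaving out each library.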

Additional observations from a re-analysis of the deposited data

Results flagged for a closer look

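For Prox1, a regulator of the pathway, the knockout difference itself differed between tumor and normal liver by a test of genotype and tissue. Prox1 differed by 0.25 between KO and WT tumors and by -1.30 between KO and WT livers, and the difference between these was 1.55 ± 0.25 (SE, limma adjusted p = 0.0238). Without WT tumor 2, WT tumor 3, KO liver 2, KO liver 3, WT liver 2 or WT liver 3 it no longer passed (adjusted p = 0.0553 to 0.0773), and it also missed after rescaling to a common sum (0.0571). Prox1 was the only 1 of the 48 pathway genes tested to pass, a share of 2.08%. The share over all genes tested was also 2.08%.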

How the results depend on the processing

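Over all refits, 800 results of single bile acid genes were set against those reported. Direction and side of the threshold were kept in 709, among them many that passed in neither form. A call was lost in 45 and gained in 23, and 23 turned the sign of a difference that passed in neither form. Only a reported call could be lost: 2 genes in KO against WT livers, 1 in KO tumors against KO livers and 5 in WT tumors against WT livers. Rescaling to a common sum moved the median of all genes to 0.34 (KO tumors against KO livers), 0.21 (WT tumors against WT livers), 0.12 (KO against WT tumors) and 0.13 (interaction). With 3 libraries a group, fewer when 1 was left out, and no counts, small differences could not be resolved. The cause of these changes was not tested.

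Genes that passed over the whole table, in KO against WT livers, were 2113 as reported, 868 with no filter on low values, 1144 in 1 fit of all 12 libraries and 240 to 1964 when 1 library was left out. In KO against WT tumors they were 9 as reported, 1 with no filter, 24 after rescaling to a common sum, 14 with median-of-ratios scaling, 1017 in 1 fit, 45 with entries of 1 name summed and 0 to 266 without 1 library. In KO tumors against KO livers they were 1664, against 543 with no filter, 670 with a filter of mean FPKM 5, 3340 in 1 fit and 129 to 2981 without 1 library. In WT tumors against WT livers they were 1981, against 1257 with no filter, 1263 with the mean filter, 1105 in 1 fit and 454 to 2134 without 1 library. For the interaction they were 243, against 56 with no filter, 133 with the mean filter, 120 after rescaling and 7 to 1368 without 1 library.

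Of the 10 bile acid genes, those passing in KO against WT livers were 2 as reported, 1 with no filter, after rescaling or in 1 fit, and 0 to 1 without 1 library. In KO against WT tumors they were 0, and 2 in 1 fit. In KO tumors against KO livers they were 1, against 0 with no filter, 3 after rescaling, 2 with median-of-ratios scaling, 6 in 1 fit and 0 to 7 without 1 library, the 7 being without KO tumor 3. In WT tumors against WT livers they were 5, against 1 with no filter or in 1 fit and 0 to 7 without 1 library. For the interaction they were 0, and 0 to 3 without 1 library.

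Samples of the same number correlated between -0.28 and 0.35 in their deviations from the group means, not all above 0.1, so the replicate numbers were not taken to pair samples. With the replicate block, 153 genes passed in KO against WT livers, 0 in KO against WT tumors, 1235 in WT tumors against WT livers and 114 for the interaction. Of the bile acid genes, 0 passed in KO against WT livers, Slc10a2 missing at an adjusted p of 0.0591, and 2 in KO tumors against KO livers.

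Signs turned only for differences that did not pass. In KO against WT livers without 1 library, Cyp7a1 ran from -0.37 to 0.0521 (0.0957 with its entries summed), Cyp8b1 from -0.57 to 0.23, Baat from -0.12 to 0.20 (-0.0047 with median-of-ratios scaling), Abcb11 from -0.15 to 0.21, Slc10a1 from -0.37 to 0.10, Slc27a5 from -0.12 to 0.0126 and Akr1d1 from -0.0094 to 0.35. In KO against WT tumors Cyp8b1 ran from -1.74 to 0.51 and Cyp27a1 from -1.01 to 0.0764. In KO tumors against KO livers Akr1d1 ran from -0.40 to -0.0018, and was 0.25 after rescaling. In WT tumors against WT livers Cyp7a1 ran from -0.48 to 0.17, and was 0.0942 after rescaling. For the interaction Cyp8b1 ran from -1.51 to 0.74 and Cyp27a1 from -0.63 to 0.46 (0.0543 after rescaling).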
